A study of Mus musculus with 7 samples.

Results

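Coarse cluster 13 is the set of single uterine cells that the authors' coarsest Louvain clustering (a graph-based grouping of cells by their RNA profile, at resolution 0.2) placed under the number 13. It held 1313 of the 107443 annotated cells (1.22%), of which 984 came from cKO and 329 from control specimens. Its members were chosen by the cluster number alone, and the cluster itself was selected on its measured share of cells, which was higher in cKO than in control inter-implantation tissue, so its shares by genotype there are given as a description, without a test. The deposited annotation as used here held no expression value of any gene, so no marker could be read and the cluster keeps its number. Of its cells, 81.4% came from inter-implantation tissue. The name under which it was selected, a Kdm6b-sensitive inter-implantation population, does not cover all of it: at days 0 and 5 the intervals of the cKO and control shares overlapped, and 244 of its cells came from the other site.

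The study compared uteri of Kdm6b cKO mice with uteri of control mice; cKO is the usual short form of conditional knockout. Inter-implantation tissue lies between the places where embryos implant, and the second kind of specimen was myometrium/endometrium dissected at those places. Inter-implantation tissue was represented by 1 specimen per genotype at gestation days 5, 8, 12, 14, 16 and 18, and by 1 per genotype from non-pregnant animals after 3 days of progesterone at 0.2 mg a day (day 0). Each non-pregnant or day 5 specimen pooled the uteri of 2 mice. For myometrium/endometrium each genotype had 3 specimens at day 12, 1 each at days 14 and 16, and 2 at day 18. The sources used here do not give the Cre driver, the deleted stretch of Kdm6b, the strain or the age of the mice, and Kdm6b expression was not analysed here.

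Kdm6b encodes a histone demethylase that removes a repressive methyl mark from a lysine of histone H3. During mouse pregnancy each embryo implants at its own site along the uterine horn, where the endometrial stroma turns into decidua, while the stretches between implantation sites remain largely undecidualised. Ribosomal protein transcripts are abundant in most cells, and their share of a cell's RNA varies between cell types and with growth. A cell cycle phase call assigns a cell to S or G2M from genes known to peak in those phases, and to G1 where neither score is raised.

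The 28 specimens (14 per genotype) held 1769 to 5720 cells each, and each of them held at least 1 cell of the cluster. Specimens were run in 3 batches and 7 pools, where the pools of a batch are repeat lanes of the same mixture. Batch 3 held the inter-implantation specimens of days 0, 5 and 8, and batch 2 held those from day 12 on, so that early against late pregnancy and the batch cannot be told apart. Specimens were recognised by hashing oligonucleotides, whose median UMIs (unique molecular identifiers, 1 per captured molecule) per cell outside the cluster were 167 to 228 in cKO and 176 to 239 in control inter-implantation specimens of days 5 to 18. At day 0 these medians were 1646 in cKO and 1776 in control cells. A barcode that also occurred in another pool was carried by 16 of the 1313 cells, and no 2 cells of the cluster shared one.

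In pregnant inter-implantation tissue the share of the cluster was higher in cKO on 6 of 6 days, and the gap to control was widest on days 12 to 18. The mean share over days 5 to 18 was 3.67% ± 2.15 in cKO and 0.486% ± 0.855 in control specimens (SD, n = 6 days each). Without day 8 these means were 3.72% in cKO and 0.138% in control tissue, so that the control mean rested largely on that day. A higher share in cKO on all 6 days was seen for 2 of the 19 coarse clusters (10.5%), cluster 13 and cluster 5. This contrast chose the cluster, and the count is not evidence for it. A share is relative to all cells recovered from a specimen, so more cells of the cluster and fewer of the others cannot be told apart.

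Day 0 was the baseline without pregnancy. There the cluster made up 2.47% of cKO cells (103 of 4177, exact 95% interval 2.02 to 2.98) and 2.60% of control cells (99 of 3807, 2.12 to 3.16). The ratio of cKO to control was 0.948, with a counting interval of 0.713 to 1.26. These intervals, like all others of single specimens given here, cover counting error only, not the spread between mice.

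At day 5 the cluster was rare in both genotypes. It held 12 of 3310 cKO cells (0.363%, 0.187 to 0.632) and 4 of 3440 control cells (0.116%, 0.0317 to 0.297), a ratio of 3.12 with a counting interval of 0.945 to 13.3. At day 8 its share was 3.44% in cKO (143 of 4157 cells, 2.91 to 4.04) and 2.23% in control tissue (83 of 3726 cells, 1.78 to 2.75), a ratio of 1.54 (1.17 to 2.05). The cluster was thus common in both genotypes at days 0 and 8 and scarce in both at day 5, with each day represented by a single specimen per genotype.

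From day 12 on, the genotypes separated. At day 12 the cluster made up 2.85% of cKO cells (110 of 3855, 2.35 to 3.43) and 0.0565% of control cells (1 of 1769, 0.00143 to 0.315). At day 14 it made up 3.64% of cKO cells (166 of 4566, 3.11 to 4.22) and 0.146% of control cells (6 of 4118, 0.0535 to 0.317). At day 16 the shares were 4.96% in cKO (198 of 3988 cells, 4.31 to 5.69) and 0.137% in control tissue (6 of 4395 cells, 0.0501 to 0.297).

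At day 18 the cKO specimen had the highest share of all 28 specimens, 6.78% (127 of 1873 cells, 5.68 to 8.02), against 0.233% in the control specimen (11 of 4726 cells, 0.116 to 0.416). Every cKO share of days 12 to 18 lay above every control share of those days, a separation that 2 of the 19 coarse clusters showed (10.5%), cluster 13 and cluster 15. The means over these 4 days were 4.56% ± 1.72 in cKO and 0.143% ± 0.0721 in control specimens (SD, n = 4). The 4 cKO specimens alone contributed 601 cells, 45.8% of the whole cluster, and the 4 control specimens contributed 24.

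The separation of days 12 to 18 was present in each repeat lane. The lanes hold cells of the same specimens, and these shares selected the cluster. Their agreement is therefore a description of the spread between lanes and no replication. Over the 12 values per genotype from single pools, the cKO shares ran from 2.67% to 7.98% and the control shares from 0% to 0.351%. The ratio of cKO to control on a single day was 24.95 at the lowest (day 14, 11.2 to 69.0). At day 12 it was 50.5, with an interval from 8.87 to 2012 because the control specimen had 1 cell.

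**Figure D1:**
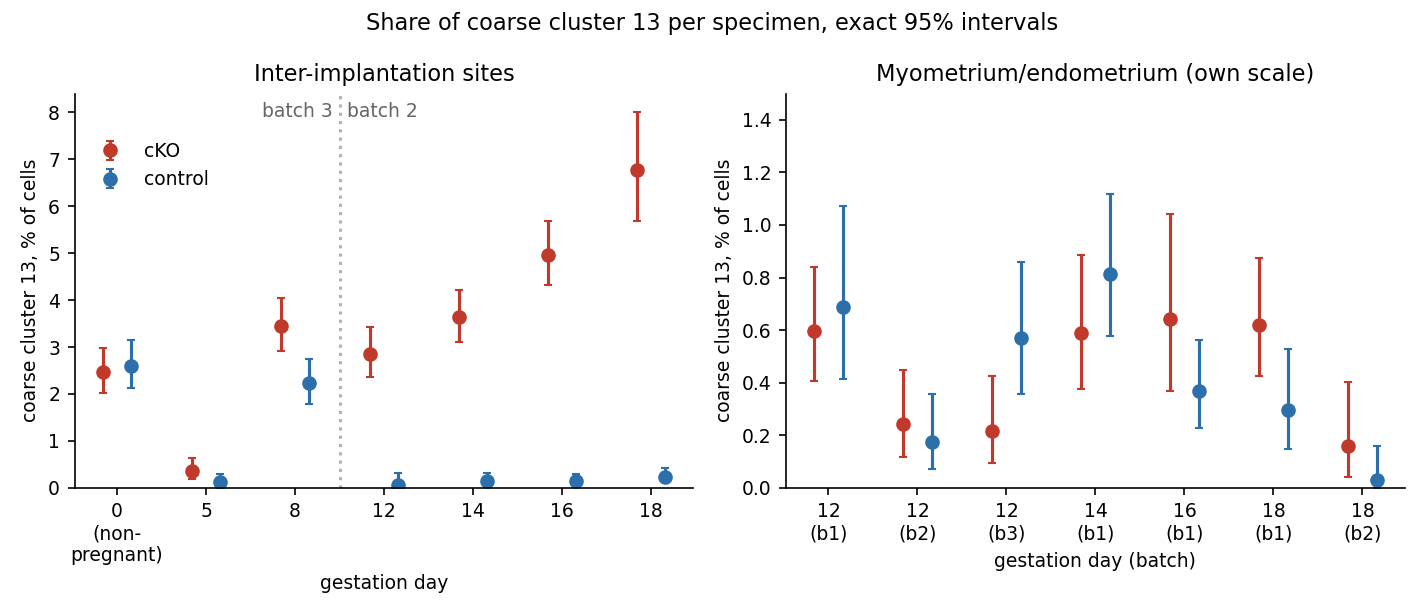
Share of cells in coarse cluster 13 (% of all cells of a specimen) by gestation day, for inter-implantation specimens on the left and myometrium/endometrium specimens on the right, on a scale of its own; points are single specimens of cKO or control mice, bars are exact 95% intervals, and b1 to b3 are batches. The 4 cKO inter-implantation specimens of days 12 to 18 sit between 2.85% and 6.78% and the 4 control ones between 0.0565% and 0.233%, while both genotypes are near 2.5% at day 0.

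Set against their own day 0 specimen, both genotypes were low at day 5 and higher again at day 8, and they parted from day 12 on. All ratios within a genotype share that 1 specimen as denominator. It was of batch 3 and the specimens of days 12 to 18 were of batch 2, so these late ratios also cross the change of batch. The shares are those that selected the cluster, and the courses were not tested. In cKO tissue the share was 0.147 of the day 0 share at day 5 (0.0736 to 0.268), 1.395 times it at day 8 (1.08 to 1.82) and 1.16 times it at day 12 (0.876 to 1.53). It then stood at 1.47, 2.01 and 2.75 times the day 0 share at days 14, 16 and 18 (2.10 to 3.60 at day 18). In control tissue it was 0.0447 of the day 0 share at day 5 and 0.857 at day 8 (0.632 to 1.16), and it lay between 0.0217 and 0.0895 of it on days 12 to 18. At day 8 the control share was therefore near its non-pregnant level, and at day 18 it was not (0.0433 to 0.167).

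The slope on gestation day was fitted with edgeR over the 6 pregnant days of each genotype. The shares fitted are those whose gap selected the cluster, so the slopes are a description, and whether they pass a threshold is no evidence. In cKO tissue the slope was 0.20 log2 units per day (SE 0.09). Of the 18 coarse clusters, 5 (27.8%) had an adjusted p under 0.05 there with edgeR, and cluster 13 was not among them. It was among those of DESeq2 (6 of 18, 33.3%) and of limma (8 of 18, 44.4%), with slopes of 0.20 and 0.26. Without day 5 the slope was 0.10, with batch as a covariate it was 0.34, and within batch 2, days 12 to 18, it was 0.21 (SE 0.05, edgeR).

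In control tissue the slope was -0.24 log2 units per day (SE 0.14), and 8 of 19 coarse clusters (42.1%), cluster 13 not among them, had an adjusted p under 0.05 with edgeR. Its sign was not stable. The slope was 0.07 without the day 8 specimen, 0.25 within batch 2, and 0.56 with batch as a covariate over all 6 specimens. Whether the slopes of the genotypes differ was not tested.

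At the implantation site, sampled from day 12 on, the shares of the genotypes overlapped. They ran from 0.158% to 0.642% in cKO and from 0.0284% to 0.815% in control specimens. In cKO mice all of them lay below the inter-implantation shares of days 12 to 18. In control mice 6 of 7 lay above the lowest and 5 of 7 above the highest inter-implantation share of those days. Those inter-implantation specimens were all of batch 2, and the 5 control specimens above the highest were of batches 1 and 3. The control myometrium/endometrium specimens of batch 2 had 0.174% and 0.0284%, so site and batch cannot be told apart in the control comparison. The mean share was 0.438% ± 0.219 in cKO and 0.420% ± 0.284 in control myometrium/endometrium (SD, n = 7 specimens each). The cluster was not selected on these specimens, and they were tested with edgeR's quasi-likelihood test and Benjamini-Hochberg adjustment over all coarse clusters. The log2 difference of cKO from control was 0.21 (SE 0.58, adjusted p = 0.937, edgeR), with 0 of 18 coarse clusters past the threshold (0.0%), 0 at an unadjusted p under 0.05, and 0 calls by DESeq2 or limma. Nothing in the labels used here ties specimens to separate mice, so p-values measure the spread between these specimens.

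At day 12 the 3 batches gave 0.596%, 0.245% and 0.215% in cKO and 0.689%, 0.174% and 0.569% in control specimens. At day 14 the shares were 0.590% in cKO and 0.815% in control tissue, and at day 16 they were 0.642% in cKO and 0.367% in control tissue. At day 18 batch 1 gave 0.621% in cKO and 0.295% in control tissue, and batch 2 gave 0.158% in cKO and 0.0284% in control tissue. The cKO share was the higher one in 4 of 7 such pairs, and the groups overlapped. The log2 difference turned to -0.08 without batch 1 and to -0.16 without the cKO day 18 specimen of batch 1, neither past the threshold.

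Depth moved with these values. Of the 244 cells of the cluster at the implantation site, 192 came from batch 1, where they had a median of 1182 UMIs and 76.6% of them had under 2000. In inter-implantation tissue 1.12% of the cluster's cells had under 2000. With cells from 2000 UMIs upwards alone, a limit chosen after the data had been seen, the shares in myometrium/endometrium ran from 0.121% to 0.382% in cKO and from 0.0314% to 0.633% in control specimens. The log2 difference was then 0.0015 (adjusted p = 0.993, edgeR). The batch 1 cells also had a median of 6.37% mitochondrial UMIs, against 2.67% in the inter-implantation cells of the cluster. The part of low depth in the batch 1 shares was not tested.

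The cluster kept its cells at all 9 resolutions of the authors' clustering, over which the number of clusters grew from 19 to 61. At each resolution 1 cluster held at least 98.9% of its cells, under the numbers 13, 16, 17, 21, 23, 25, 27, 26 and 28 from the coarsest to the finest. The Jaccard index, the shared cells divided by the cells of either set, was between 0.988 and 1. At resolutions 0.4 and 1.5 the match was exact. At 0.8 the matching cluster also took in 8 cells from outside, among which coarse cluster 17 was the most common origin. At the finest but one it took in 1 cell of coarse cluster 16.

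The cells that left were the same ones each time. At 5 of the 9 resolutions, of which 0.6 was the coarsest and 2 the finest, 15 cells went to another cluster, while 1298 (98.9%) stayed together throughout. All 15 came from cKO inter-implantation tissue, 8 from day 12, 5 from day 14 and 2 from day 16, and all 15 were called G2M. Their median was 54349 UMIs and 6651 genes per cell, against 15082 UMIs and 3369 genes in the cluster as a whole. At resolution 2 they lay in cluster 40, of whose 694 cells 662 belonged to coarse cluster 12, the coarse cluster with the highest share of G2M calls (79.8%). Taking the matching cluster at resolution 2 in place of coarse cluster 13 changed the mean share over days 5 to 18 to 3.61% in cKO and left it at 0.486% in control tissue.

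At inter-implantation sites of cKO mice the cluster's cells had more UMIs than the other cells of their specimens. Their median UMIs per cell were 11808 at day 0, 12421 at day 5 and 13690 at day 8. They were 34776 at day 12, 27672 at day 14, 25724 at day 16 and 18740 at day 18. The other cells of the same specimens had medians of 5552 to 9644, so the cluster stood 2.02 to 4.02 times above them. The gap was wider in batch 2 (3.27 to 4.02 times) than in batch 3 (2.02 to 2.23 times).

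Control cells of the cluster were numerous enough to compare on days 0 and 8. Their medians were 11909 UMIs at day 0 and 10225 at day 8, against 6208 and 5331 in the other control cells. On the remaining days the control specimens held 1 to 11 cells of the cluster, with medians of 1878 at day 5 (4 cells), 39109 at day 14 (6 cells), 28109 at day 16 (6 cells) and 19167 at day 18 (11 cells). The single cell of day 12 had 4549 UMIs, 16.7% of them mitochondrial. At days 14, 16 and 18 these control medians lay above the cKO medians of the same day. In myometrium/endometrium of batch 1 the cluster's cells were instead poorer in UMIs than the others of their specimens, with 0.263 to 0.494 times their median in cKO and 0.210 to 0.427 times in control tissue.

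**Figure D2:**
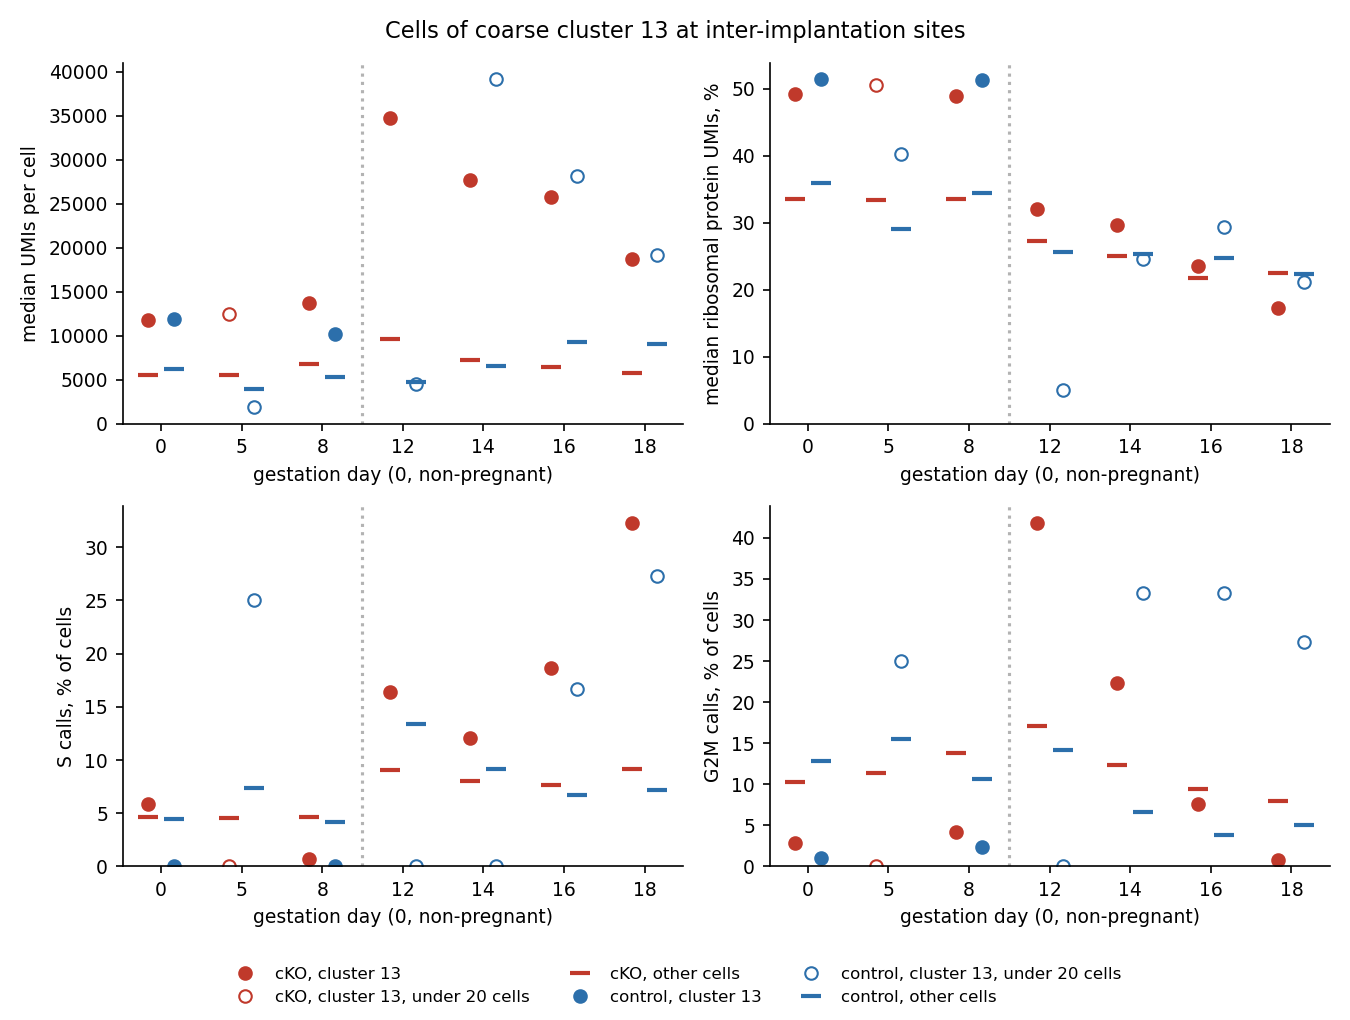
Median UMIs per cell, median share of ribosomal protein UMIs (%), and shares of S and G2M calls (% of cells) in coarse cluster 13 at inter-implantation sites by gestation day; circles are the cluster's cells of 1 cKO or control specimen (open where under 20 cells), short bars the other cells of that specimen, and the dotted line parts batch 3 on the left from batch 2 on the right. In cKO the cluster's median UMIs are 11808 to 13690 left of the line and 18740 to 34776 right of it, and its ribosomal protein share ends at 17.2% at day 18.

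Ribosomal protein genes set the early cells apart from the late ones. In cKO inter-implantation tissue the median share of UMIs from these genes was 49.2%, 50.5% and 48.9% at days 0, 5 and 8. It was 32.0%, 29.7%, 23.6% and 17.2% at days 12, 14, 16 and 18. The other cKO cells had 33.5%, 33.3% and 33.5% on the early days and 27.3%, 25.1%, 21.7% and 22.5% on the late ones. The difference between the cluster and the other cells of its specimen was thus 15.3 to 17.2 percentage points in batch 3, 1.86 to 4.73 points at days 12 to 16, and -5.31 points at day 18.

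The control cells had 51.5% and 51.2% at days 0 and 8, against 35.9% and 34.3% in the other control cells. Their late values were 24.5%, 29.4% and 21.2% at days 14, 16 and 18, each from 11 cells or fewer. The late control values were thus also below the early ones, and a difference between genotypes in this course was not tested. Among the 19 coarse clusters, cluster 13 had the widest interquartile range of the ribosomal protein share (28.8 points) and the second highest median (29.7%).

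**Figure D3:**
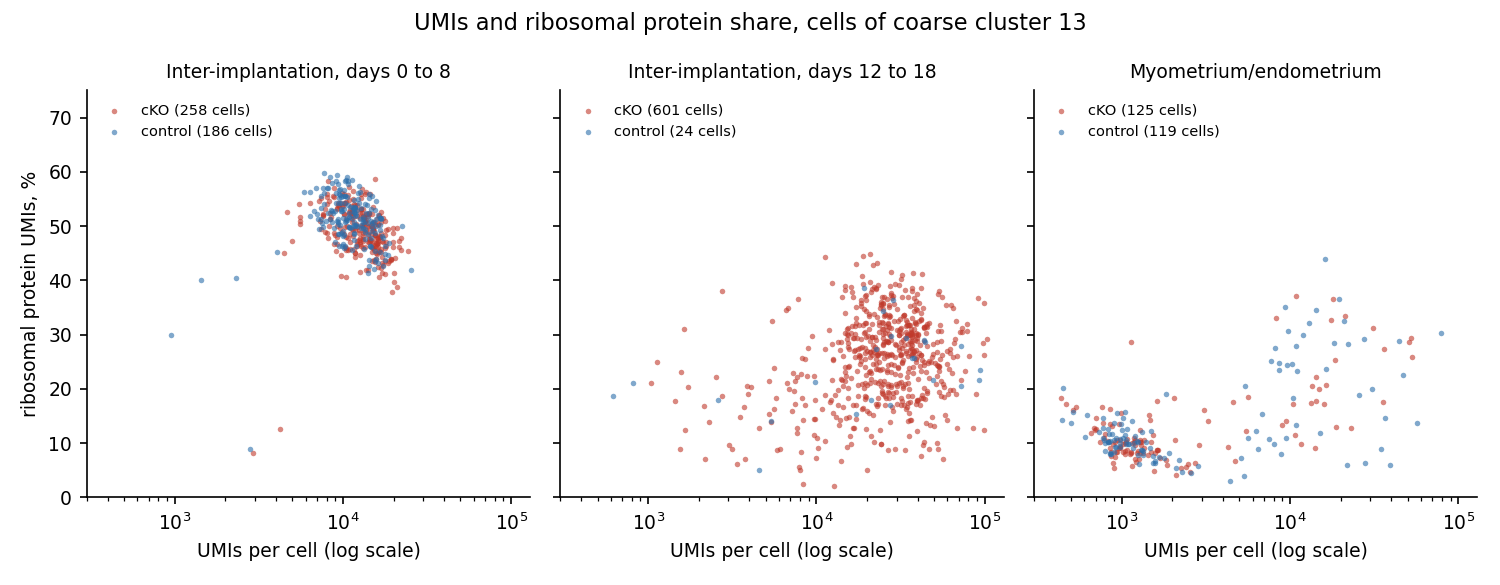
UMIs per cell (log scale) against the share of ribosomal protein UMIs (%) for each cell of coarse cluster 13, in inter-implantation specimens of days 0 to 8, of days 12 to 18, and in myometrium/endometrium; red points are cKO and blue points control cells. The early inter-implantation cells gather around 12160 UMIs and 50.2%, the late ones around 26408 UMIs and 26.2%, and most myometrium/endometrium cells lie near 1346 UMIs and 10.7%.

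Grouped by site and batch, the cluster's cells differed in depth and composition. The 444 inter-implantation cells of days 0 to 8 had a median of 12160 UMIs and 50.2% ribosomal protein UMIs, and the 625 of days 12 to 18 had 26408 UMIs and 26.2%. The 192 cells of myometrium/endometrium in batch 1 had 1182 UMIs and 10.2%, the 22 of batch 2 had 30957 UMIs and 21.3%, and the 30 of batch 3 had 10017 UMIs and 26.4%. In the early set 258 cells came from cKO and 186 from control tissue. Their medians were 13165 UMIs and 49.2% in cKO cells and 11246 UMIs and 51.3% in control cells. By day, the cKO and control medians were 11808 and 11909 UMIs at day 0, and 13690 and 10225 UMIs at day 8.

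In the authors' 2-dimensional embedding the early and late inter-implantation cells differed in median position, while the batch 1 cells of the implantation site lay beside the early ones. The median position was 0.0049 and -4.02 on the first and second axis for the early inter-implantation cells, and -0.43 and -3.48 for the late ones. The late cells were themselves spread by day. In cKO tissue their medians on the first axis were 0.31, -0.05, -0.72 and -0.97 at days 12, 14, 16 and 18. The batch 1 cells of the implantation site lay at 0.08 and -3.98. Those of batch 2 (22 cells) lay at -0.68 and -3.49, and those of batch 3 (30 cells) at -0.78 and -3.05, away from the early cells. Median distance to the cluster's centre was 0.48 units, and 3 cells lay more than 2 units away. The 3 coarse clusters with the nearest median positions were cluster 16 at 2.09, cluster 17 at 2.46 and cluster 12 at 2.63 units. Each was farther from cluster 13 than the median positions of its early and late cells were from each other. On the leading principal components, the main axes of variation of the RNA profiles, other clusters were nearest. These were cluster 6 at a distance of 4.11, cluster 16 at 4.59 and cluster 15 at 7.21.

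**Figure D4:**
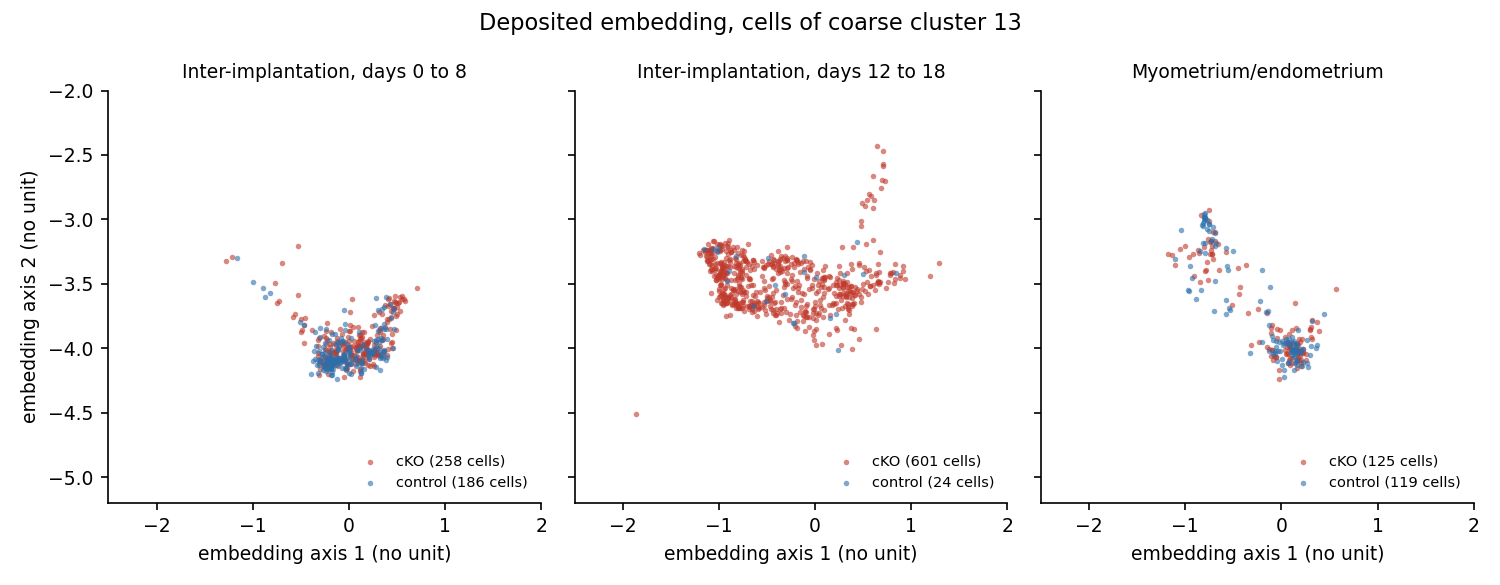
Position of each cell of coarse cluster 13 on both axes of the authors' embedding (no unit), in inter-implantation specimens of days 0 to 8, of days 12 to 18, and in myometrium/endometrium; red points are cKO and blue points control cells, and 3 cells fall outside the plotted range. The early cells form a compact group near -4.02 on the second axis and the late cKO cells spread over a band near -3.49.

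Phase calls of the cluster's cells differed between days. G2M calls in cKO cells were rare at days 0 and 8, most frequent at day 12 and rare again at day 18. In cKO inter-implantation tissue 2.91% of the cluster's cells were called G2M at day 0 (exact 95% interval 0.605 to 8.28) and 4.20% at day 8 (1.56 to 8.91). At day 12 the share was 41.8% (46 of 110 cells, 32.5 to 51.6), and it was 22.3% at day 14 (16.2 to 29.4), 7.58% at day 16 (4.30 to 12.2) and 0.787% at day 18 (1 of 127 cells, 0.0199 to 4.31). The other cKO cells had 17.1%, 12.3%, 9.42% and 7.96% G2M calls on those 4 days. At days 0, 5 and 8 they had 10.3%, 11.3% and 13.9%, above the cluster's share on each (0 of 12 cells at day 5). In single pools the cluster's share was 34.3% to 45.7% at day 12 and 0% to 1.89% at day 18.

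S calls were most frequent at day 18. They made up 16.4% of the cluster's cKO cells at day 12 (10.0 to 24.6), 12.05% at day 14 (7.52 to 17.99), 18.7% at day 16 (13.5 to 24.8) and 32.3% at day 18 (41 of 127 cells, 24.3 to 41.2). The other cKO cells stayed between 7.65% and 9.16% on these days. At day 18 single pools gave 22%, 25% and 45.3%, so that the lanes of that specimen differed widely.

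At day 0 S calls made up 5.83% of the cluster in cKO (6 of 103 cells, 2.17 to 12.2) and 0% in control tissue (0 of 99 cells, 0 to 3.66). All 6 cKO cells were in 1 of the specimen's 2 pools, where they were 13.6% of the cluster. At day 8 S calls made up 0.699% of the cluster in cKO (1 of 143 cells) and 0% in control tissue (0 of 83 cells). Late control cells included 0 of 6 S calls at day 14, 1 of 6 at day 16 and 3 of 11 at day 18, and 2, 2 and 3 G2M calls. UMI totals differed between the days, and thinning to a common depth needs gene values, which were not used here. The part of depth in the phase calls was not tested, and a call alone does not show that a cell was dividing.

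The cluster's cells were compared by 6 measures between genotypes in the 3 pairs of specimens of the same site, day and batch that held at least 20 cells each. These were the inter-implantation pairs of days 0 and 8 and the myometrium/endometrium pair of day 14. An exact two-sided permutation within pairs can give no p below 0.25 at this size, so no measure could pass. The mean difference of cKO from control was 0.06 log2 units for median UMIs (SD 0.32, higher in 1 of 3 pairs, exact permutation p = 1) and 0.08 for median genes (SD 0.21, higher in 2 of 3, p = 0.75, adjusted p = 0.9, exact permutation). The ribosomal protein share differed by -1.47 percentage points (SD 1.47, lower in 2 of 3, exact permutation p = 0.5, adjusted p = 0.9).

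The mitochondrial share was 0.211 points higher in cKO (SD 0.0629, 3 of 3 pairs, exact permutation p = 0.25, adjusted p = 0.75 over the 6 measures). G2M calls were 4.66 points more frequent (SD 4.88, 3 of 3 pairs, exact permutation p = 0.25, adjusted p = 0.75), and S calls 1.26 points (SD 4.31, 2 of 3 pairs, exact permutation p = 0.75, adjusted p = 0.9). With pairs of at least 10 cells, 7 pairs entered and the smallest possible p was 0.0156. The added pairs were inter-implantation day 18, with 11 control cells, and the low-depth batch 1 myometrium/endometrium pairs of days 12, 16 and 18. The ribosomal protein share was then lower in cKO in 6 of 7 pairs, by a mean of -1.71 points (SD 1.43, exact permutation p = 0.0313, adjusted p = 0.188), which did not pass after adjustment. The mitochondrial difference over these 7 pairs was 0.00892 points, higher in cKO in 4 of 7 (exact permutation p = 0.984). Relative to the other cells of each specimen, the ribosomal difference in the 3 larger pairs was -0.417 points, with cKO higher in 2 of 3.

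The shares of the coarse clusters nearest in the embedding are set beside those of cluster 13. Cluster 15, nearer than clusters 17 and 12 on the principal components, is not among them. Its cKO shares of days 12 to 18 also all lay above its control shares. Cluster 16 made up 0.233%, 0.241%, 0.201% and 0.747% of cKO inter-implantation cells at days 12, 14, 16 and 18 and 0.226%, 0.704%, 0.205% and 0.169% of control cells. Cluster 17 made up 0.311%, 0.175%, 0.226% and 0.641% in cKO and 0.113%, 0.267%, 0.842% and 0.614% in control tissue. For both, the cKO and control values of these days overlapped. Coarse cluster 12, which made up most of the resolution 2 cluster that also held the 15 leaving cells, took 4.20%, 1.36%, 0.752% and 0.427% in cKO and 1.02%, 0.340%, 1.07% and 0.148% in control tissue, and its share was higher in cKO on 5 of the 6 pregnant days. The difference between clusters in this contrast was not tested.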

How the data were processed

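Single-cell RNA libraries of hashed uterine cells were made with a droplet 3' kit, per the labels' protocols. Cell Ranger, Seurat and the build mm10 are named in the submitters' processing notes, without versions or settings. The authors deposited 1 row per cell. UMI, gene and hashing counts per cell were deposited by the authors as raw whole numbers. The authors also deposited the percent of UMIs from ribosomal protein and mitochondrial genes, the latter at most 20%. The S and G2M score of each cell, from which the phase call was made, was deposited without the gene lists behind it, and only the calls were used. Filters, specimen assignment and clusters are the authors' own. Doublets were not called again, and 99.5% of the cluster's cells had UMIs of 4 hashing oligonucleotides, as did 99.7% of the others.

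Cells of a specimen's pools were added together, and specimens were the replicates. For a share in 1 specimen the exact 95% interval is that of Clopper and Pearson (scipy 1.17.1). Cells per specimen and coarse cluster were tested with edgeR 4.0.16 (R 4.3.3; quasi-likelihood F test, specimen total as library size, no composition factor), with gestation day as a factor at the implantation site and as a number in the slopes. Clusters needed 10 cells in all, the threshold was an adjusted p of 0.05, and a standard error is the log2 value divided by the square root of F. DESeq2 1.42.0, limma 3.58.1 on logit shares, TMM factors, other filters and resolutions, batch terms and leaving out specimens were the alternatives. Cell measures were compared by exact permutation within pairs (numpy 2.4.6). Clusters named beside cluster 13 are those matching it at other resolutions, those with at least 1% of its cells, and the 3 nearest in the embedding. Clusters 5, 6 and 15 were named after their values had been seen. The cluster, its measures and the tests were chosen with earlier results of these data known. The limit of 2000 UMIs for the tests and the means of days 12 to 18 were chosen after seeing the data.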

Additional observations from a re-analysis of the deposited data

Results flagged for a closer look

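The share of the cluster in control inter-implantation tissue at day 8, 2.23% (83 of 3726 cells), stood apart from the other 5 pregnant control specimens, which had 0.0565% to 0.233%. Its gap to the nearest of them was 0.919 of the whole range over the 6 specimens. The specimen's 2 pools gave 2.27% and 2.18%, and the control day 0 specimen, of the same batch 3, had 2.60%. The cKO day 8 specimen was at 3.44%. In all, 10 combinations of group and measure were examined this way, with a limit that chance passes about 1 in 20 times among like specimens. These 6 shares belong to the contrast that selected the cluster, and they come from batch 2 and batch 3. That rate therefore does not apply to them, and the flag is a description.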

How the results depend on the processing

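The difference of mean shares between cKO and control inter-implantation tissue over days 5 to 18, 3.19 percentage points, lay between 2.51 and 4.42 points under 14 alternatives. The cluster was selected on this difference, so its sign there is no sign of stability, and each day has 1 specimen per genotype. The myometrium/endometrium difference was -0.0773 without batch 1, lay between -0.16 and 0.40 when 1 specimen was left out (-0.06 without the control day 18 specimen of batch 2), and was 0.18 with each day and batch pair as a replicate block (adjusted p = 0.807, edgeR). No alternative brought it past the threshold. The cKO slope, given as a description, was past the threshold with DESeq2 (0.20) and limma (0.26) only, was 0.34 with batch as a covariate, and lay between 0.10 and 0.32 with 1 day left out, lowest without day 5. The control slope reversed to 0.56 with batch as a covariate and to 0.25 within batch 2, and lay between -0.35 and 0.0705 (without day 8) with 1 day left out. The cause was not tested. Relative to the other cells of each specimen, the differences of log2 medians were -0.12 for UMIs and -0.11 for genes. Pairs of at least 10 cells gave -0.316 points for S and -3.52 points for G2M calls. With 1 pair left out, UMIs ran from -0.11 to 0.20, genes from -0.0382 to 0.17 and S calls from -1.02 to 3.26 points. The ribosomal difference lay between -2.32 and -0.417 points under 8 alternatives, and the mitochondrial one between 0.00892 (pairs of at least 10 cells) and 0.246 points. The late control specimens are limited by their number of cells in the cluster, 1 to 11 each, and the batch 1 specimens by their depth.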

Other observations

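Outside the cluster, cells with at least 20000 UMIs were more frequent in cKO than in control inter-implantation tissue at days 0, 8, 12, 14 and 16 and less frequent at days 5 and 18. At days 0, 5 and 8 they made up 6.87%, 5.43% and 5.73% of cKO cells and 5.93%, 6.64% and 2.83% of control cells. At days 12, 14 and 16 they made up 14.6%, 9.89% and 8.07% of cKO cells and 5.37%, 5.25% and 6.17% of control cells, and at day 18 they made up 6.59% of cKO and 7.08% of control cells. The cluster supplied 15.4%, 21.8%, 29.5% and 33.9% of all such cKO cells at days 12, 14, 16 and 18, and at most 2.26% of such control cells on these days.

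Hashing UMIs did not follow the RNA content of the cluster. At days 12, 14 and 16 its cKO cells had a median of 185, 147.5 and 126.5 hashing UMIs, against 228, 213 and 191 in the other cells of those specimens, although their RNA UMIs were 3.61 to 4.02 times as high. In the cKO specimens of days 5, 8 and 18 the cluster's cells had 180, 170 and 201, against 170, 167 and 192 in the others. The lower hashing medians of days 12 to 16 were thus absent at day 18, where RNA UMIs were 3.27 times as high. At day 0 the cluster's cells had more hashing UMIs than the others in both genotypes, 2274 against 1646 in cKO and 2026 against 1776 in control tissue. These comparisons were not tested.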
